A study of Mus musculus with 6 samples.

Results

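G-protein-coupled receptors are proteins that cross the membrane in a bundle of helices and pass a signal from outside the cell to heterotrimeric G proteins and arrestins. In fibroblasts, receptors for thrombin, lysophosphatidic acid, sphingosine 1-phosphate, catecholamines, purines and matrix ligands are known to set contraction, migration and growth through the Gs, Gi, Gq and G12/13 classes of G protein. Adhesion receptors, a family with long extracellular regions, bind matrix or neighbouring cells, and many receptors that carry only a Gpr number have no settled ligand. The genes described here were the rows of the raw count table whose symbol matched the names of these families, which gave 57 genes of the 14831 listed, or of the 13666 that carry a symbol. A rule on names takes in some proteins that are not receptors of this class. Of the 57 genes 8 were listed as such matches (Gpr89, Gpr107, Gpr108, Gpr137, Gpr137b, Gpr137c, Gpr155 and Gpr180). Gpr137b-ps, a near-identical copy of Gpr137b, was among the 57 but not on that list.

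The libraries were made from immortalized mouse pancreatic fibroblasts of a mixed strain, with genotype WT for 3 libraries and Gli2/Gli3 KO for the other 3, each well being grown to confluence in medium with calf serum. The study's methods describe the lines as taken from the adult pancreas of mice with floxed Gli alleles, immortalized, infected, and sorted by flow cytometry, where control cells received a GFP adenovirus and a dsRed lentivirus and knock-out cells the GFP adenovirus and a Cre adenovirus driven by the CMV promoter. The groups therefore differ in the viruses they received as well, and the labels do not say whether the wells of a group came from separately made lines. Polyadenylated RNA was sequenced, and the files give the number of reads counted on each gene.

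The targeted genes went against the labels. The counts of Gli2 were 809, 944 and 868 in the WT libraries and 1932, 2316 and 1926 in the KO libraries, and those of Gli3 were 392, 416 and 398 against 1434, 1637 and 1404. As both were higher where the genotype label says KO, the text writes labelled WT and labelled KO, and each direction below is that of the labels. The Hedgehog targets Gli1 (40, 50 and 37 counts against 4, 10 and 13; log2 fold change -2.40) and Ptch1 (7046, 7912 and 7834 against 2732, 3416 and 2851; -1.53) were lower in labelled KO. A count over the whole gene does not show whether a floxed exon was present.

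Totals ranged from 31728420 to 41035931 counts per library, and 3 counts, taken as the floor of detection, were 0.0720 to 0.0957 CPM (counts scaled to 1e6 per library). Of 12 fibroblast markers 10 had a row, without Fap and Pdpn. Their summed level was 57400 to 58134 CPM in labelled WT and 47298 to 49659 CPM in labelled KO. Among them Thy1 had 4, 1 and 0 counts in labelled WT and 19, 15 and 9 in labelled KO. Dcn (log2 fold change -1.55), Col3a1 (-0.94), Pdgfra (-0.90) and Pdgfrb (-0.66) were called lower, and S100a4 (1.67) was called higher. The leukocyte markers Ptprc, Adgre1, Itgam, Tyrobp and Cx3cr1 had no row and the other 5 of 10 summed to 55.8 to 60.9 CPM against 52.8 to 54.5 CPM. The endothelial markers Pecam1, Cdh5 and Kdr had none either, and the 3 of 10 with a row summed to 2.12 to 4.07 against 1.84 to 2.11 CPM. Of 10 epithelial markers 4 had a row, without Epcam, and summed to 12.8 to 13.8 against 29.5 to 30.4 CPM, where Krt7 went from 4.38 to 23.1 CPM and Sox9 from 8.51 to 6.03 CPM. Further, 5 of 10 Schwann cell markers summed to 55.6 to 55.9 against 41.9 to 42.7 CPM. Their log2 fold changes ran from -0.43 to 1.26 with a median of 0.00, and Erbb3 alone was called, higher in labelled KO. The 4 of 10 mural markers with a row summed to 1826 to 1989 against 1898 to 1984 CPM. Nearly all of the mural sum was Acta2, while Mcam, at 3.56 and 20.4 CPM, and Cnn1, at 6.54 and 10.8 CPM, were called higher. The part of the epithelial, mural, Schwann cell and fibroblast marker differences in the receptor values was not tested, and in bulk RNA fewer cells of a type and less RNA per cell cannot be told apart.

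Fold changes below are labelled KO relative to labelled WT and were tested by the quasi-likelihood method of edgeR, with Benjamini-Hochberg adjusted p-values over all 14289 genes tested. A gene was called higher or lower at an adjusted p under 0.05 together with a change of at least 1.5-fold. Of the 57 receptor genes 55 were tested, and 23 were called (41.8%), beside 17.7% of all genes tested. The 14 called higher stood beside a background of 11.6%, and the 9 called lower beside 6.1%. Another 18 receptor genes had an adjusted p under 0.05 with a smaller change, which made 41 past the p limit alone (22 higher and 19 lower) beside 58.7% of all genes, and 14 did not pass it. The counts scaled to CPM did not overlap between the groups for 44 of the 55, beside 64.2% of all genes tested.

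The calls lay mainly among receptors at low levels. Among receptor genes over 10 CPM in at least 1 group 6 of 30 were called (20%, background 10.2%), and among those at or under 10 CPM in both groups 17 of 25 were called (68%, background 32.4%). The median log2 fold change over the tested receptor genes was 0.07, and the median of its absolute size was 0.43, beside 0.00 and 0.22 over all genes. The summed CPM of the 57 genes was 2009 to 2012 in labelled WT and 2015 to 2031 in labelled KO. F2rl1, Adgrg2, Gpr162, S1pr5 and Adra2a passed the filter on low counts in the labelled KO libraries alone, so a higher value there was a condition of their being tested. Without them 18 receptor genes were called, 9 in each direction, beside 15.3% of all genes that passed the filter in both groups (9.77% higher and 5.56% lower).

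**Figure D1:**
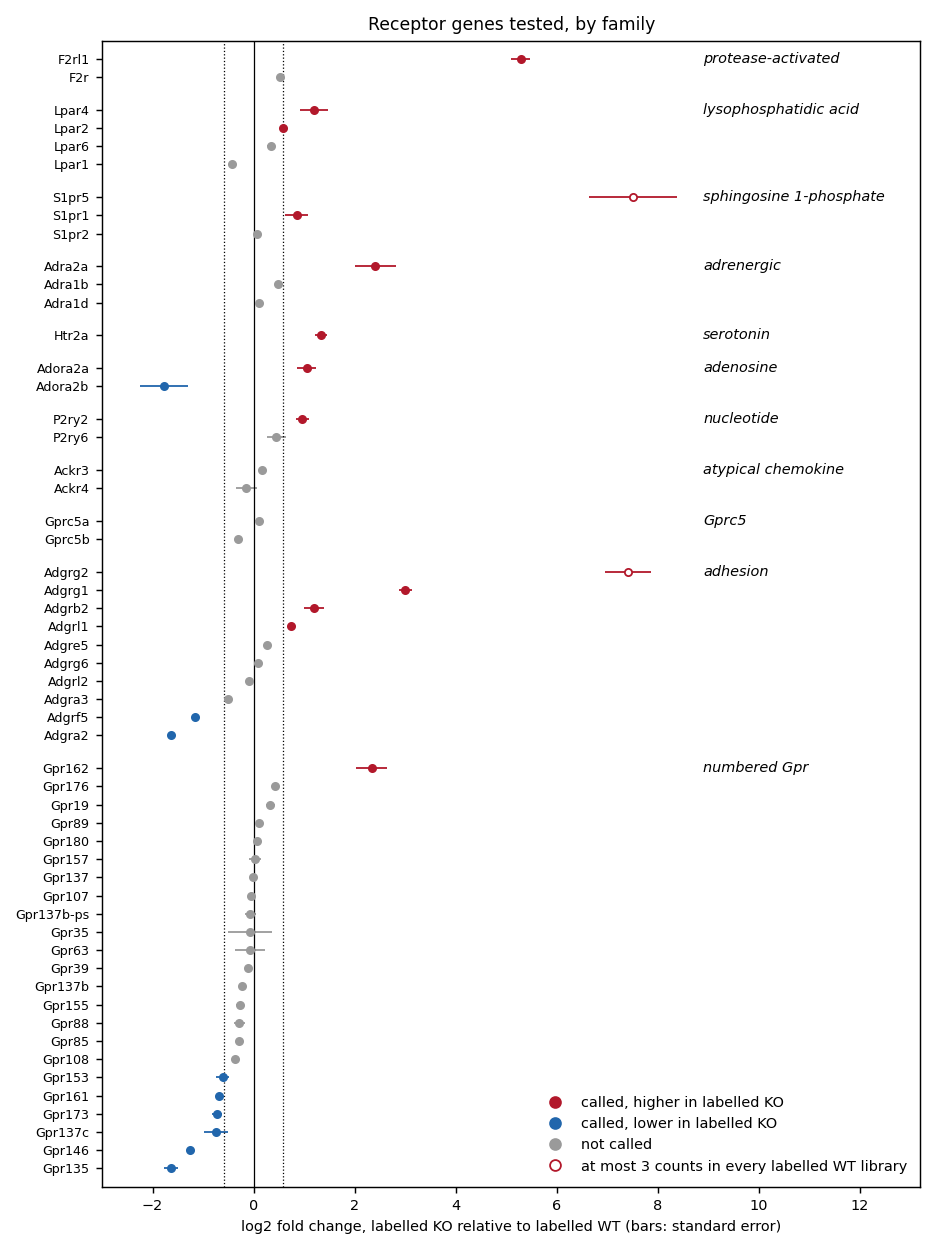
Log2 fold change (x axis, labelled KO relative to labelled WT, bars are the standard error) of the receptor genes tested, 1 of them left out, grouped by family and ordered within it. Red points are the 14 called higher and blue points the 9 called lower; dotted lines mark 1.5-fold. Open points are S1pr5 and Adgrg2, whose labelled WT libraries all had at most 3 counts, so that their fitted size depends on the prior count of the fit and is no bound.

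Levels between genes were compared per kilobase of annotated exon. F2r, the thrombin receptor PAR1, had the highest mean level over the 6 libraries, 100 CPM per kilobase, followed by Gpr39 (64.3), Gpr108 (31.0), Adra1d (25), Lpar1 (19.1), Gpr180 (17.8), Gpr176 (16.8), Gpr137b (15), Ackr3 (13.9) and Gpr137 (12.4), all in CPM per kilobase. None of these 10 was called. In edgeR's test 8 of them had an adjusted p under 0.05 with changes under 1.5-fold, where 58.7% of all genes passed that p limit. Gpr180 and Gpr137 did not pass it. In all 13 receptor genes were above 10 CPM per kilobase, of which Adgrl1 alone was called, and 24 were below 1, of which 22 were tested and 15 called. The share of all genes called was not taken by level per kilobase. By CPM it was 10.2% over 10 CPM in a group and 32.4% at or under 10 CPM in both groups. Some of the receptor levels per kilobase rest on reads that cannot be placed with certainty. Gpr39 shares 1202 exon bases with Lypd1 on the opposite strand. Lypd1 had 0.457 CPM in labelled WT and 0.766 CPM in labelled KO, against 202 and 186 CPM for Gpr39. Adra1d and Gpr137 share 147 and 524 bases with genes of the opposite strand, and Gpr137b has a near-identical copy, Gpr137b-ps. Whether the counting used strand is not given in the sources used here.

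**Figure D2:**
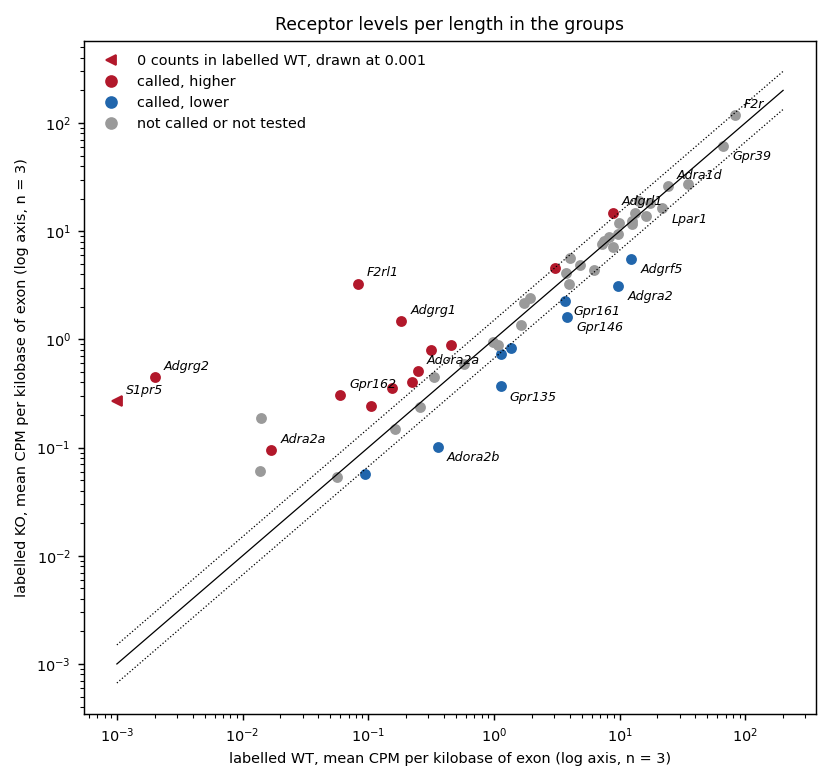
Mean level of the 57 receptor genes per kilobase of exon (CPM per kilobase, log axes, n = 3 libraries a group) in labelled WT (x axis) and labelled KO (y axis); the solid line is equality and the dotted lines are 1.5-fold. F2r and Gpr39 lie at the upper right within the dotted lines, and the called genes far from the line, such as F2rl1, Adgrg2 and S1pr5, lie below 10 CPM per kilobase in both groups.

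The protease-activated receptors are cut open by proteases and carry their own ligand. F2r had 8581, 9256 and 8698 counts in labelled WT and 14050, 16828 and 12661 in labelled KO, or 82.2 ± 0.592 and 118 ± 3.09 CPM per kilobase (SD, n = 3). The groups did not overlap, and the log2 fold change of 0.53 ± 0.03 (SE; edgeR adjusted p = 1.10e-08) stayed below the limit of 1.5-fold. F2rl1, the trypsin and tryptase receptor PAR2, had 7, 9 and 6 counts in labelled WT and 287, 420 and 290 in labelled KO. It passed the count filter in labelled KO alone. It rose from 0.227 ± 0.0405 to 8.99 ± 1.00 CPM (SD, n = 3), a log2 fold change of 5.29 ± 0.19 (SE; edgeR adjusted p = 1.26e-10). The pair lie 76576 bases apart on chromosome 13 (GRCm38, F2r at 95601803 to 95618487 and F2rl1 at 95511732 to 95525227). F2rl1 made up 0.100% of the summed level per kilobase of the pair in labelled WT and 2.7% in labelled KO.

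All 4 lysophosphatidic acid receptors listed had an adjusted p under 0.05 in edgeR's test, beside 58.7% of all genes tested. They moved in different directions, and 2 of the 4 were called, beside 17.7% of all genes. Lpar1, the main receptor of this lipid in fibroblasts, had 2939, 3153 and 2992 counts in labelled WT and 2561, 2878 and 2245 in labelled KO, a log2 fold change of -0.43 ± 0.03 (SE; adjusted p = 2.72e-07), which is under the fold limit. Lpar2 rose from 558, 584 and 584 counts to 913, 1101 and 938, with a log2 fold change of 0.59 ± 0.05 (SE; edgeR adjusted p = 8.87e-07). That lies on the fold limit, and without the third labelled KO library (0.55) or the second labelled WT library (0.57) Lpar2 was not called. Lpar4, a receptor of the purinergic branch, rose from 16, 14 and 13 counts to 25, 45 and 42 (log2 fold change 1.19 ± 0.27, SE; edgeR adjusted p = 2.39e-03), and Lpar6, another of that branch whose exons share 408 bases with Rb1 on the opposite strand, had a log2 fold change of 0.34. As a share of the family's level per kilobase Lpar1 went from 81.1% ± 0.468 to 69.1% ± 1.08 and Lpar2 from 11.3% ± 0.281 to 19.6% ± 1.30 (SD, n = 3), while the family's sum was 27.0 CPM per kilobase in labelled WT and 23.6 in labelled KO.

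Among the sphingosine 1-phosphate receptors the most abundant did not pass the test and both rarer ones were called, beside 17.7% of all genes. S1pr5 passed the count filter in labelled KO alone, so a higher value there was a condition of its being tested. Of the 2 others S1pr1 alone was called, beside 15.3% of all genes that passed the filter in both groups. S1pr2, which couples to G12/13, had 1818, 1959 and 1815 counts in labelled WT and 2133, 2561 and 2010 in labelled KO, with a log2 fold change of 0.07 ± 0.03 (SE; edgeR adjusted p = 0.0700). S1pr1, the Gi-coupled receptor of lymphocyte exit and vessel integrity, had 15, 25 and 26 counts against 42, 44 and 49 (log2 fold change 0.85 ± 0.24, SE; edgeR adjusted p = 7.90e-03). S1pr5, known for the exit of natural killer cells from lymphoid tissue, had 0 counts in every labelled WT library and 30, 19 and 23 in labelled KO, which is at least 7.16-fold higher against the floor of 3 counts per library (edgeR adjusted p = 2.82e-05), and 51 of its exon bases are shared with a gene of the opposite strand. S1pr2 still held 91.9% ± 1.47 of the family's level per kilobase in labelled KO, after 97.0% ± 0.779 in labelled WT (SD, n = 3).

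The receptors of amines were led by the alpha-1 adrenergic subtypes, which signal through Gq. Adra1d had 1491, 1516 and 1425 counts in labelled WT and 1726, 2012 and 1677 in labelled KO (log2 fold change 0.10 ± 0.04, SE; edgeR adjusted p = 0.0392), and Adra1b had a log2 fold change of 0.48, so neither was called. Adra2a, the Gi-coupled subtype, was called, with 2, 4 and 2 counts in labelled WT and 16, 17 and 17 in labelled KO (log2 fold change 2.41 ± 0.40, SE; edgeR adjusted p = 2.09e-04). It passed the count filter in labelled KO alone. Its level in labelled KO was 0.0948 CPM per kilobase, against 25.9 for Adra1d. Htr2a, a Gq-coupled serotonin receptor, rose from 50, 63 and 60 counts to 162, 199 and 137 (log2 fold change 1.33 ± 0.12, SE; edgeR adjusted p = 1.26e-06). Its relative Htr2b was not tested, with 0, 3 and 0 counts in labelled WT and 8, 13 and 22 in labelled KO, and neither was Bdkrb2, the constitutive bradykinin receptor, with 4, 1 and 0 against 8, 12 and 6. Both untested genes were higher in each labelled KO library than in any labelled WT library on the CPM scale. Among all genes tested 64.2% did not overlap between the groups.

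The adenosine receptors went opposite ways. Both couple to Gs, Adora2a with high and Adora2b with low affinity for adenosine. Adora2a had 23, 22 and 28 counts in labelled WT and 62, 60 and 50 in labelled KO (log2 fold change 1.05 ± 0.19, SE; edgeR adjusted p = 4.23e-04). Adora2b had 11, 21 and 32 against 11, 8 and 2 (log2 fold change -1.78 ± 0.48, SE; edgeR adjusted p = 6.29e-03), a gene whose libraries spread widely within each group, and limma on the deposited log2 values did not call it (adjusted p = 0.0567). Adora2a made up 43.0% ± 11.2 of the pair's level per kilobase in labelled WT and 84.3% ± 8.52 in labelled KO (SD, n = 3), at a sum of 0.605 and 0.614 CPM per kilobase. The nucleotide receptor P2ry2, which responds to ATP and UTP, rose from 63, 58 and 53 counts to 121, 153 and 112 (log2 fold change 0.96 ± 0.13, SE; edgeR adjusted p = 3.06e-05), and for P2ry6, a UDP receptor, the log2 fold change was 0.45 with an edgeR adjusted p of 0.0588. No classical chemokine receptor was found by symbol, in a table from which the authors had removed low counts. The scavenging receptor Ackr3 had a log2 fold change of 0.16 and Ackr4 of -0.15, and the retinoic acid-induced Gprc5a and Gprc5b had 0.11 and -0.31, so none of these 4 was called.

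**Figure D3:**
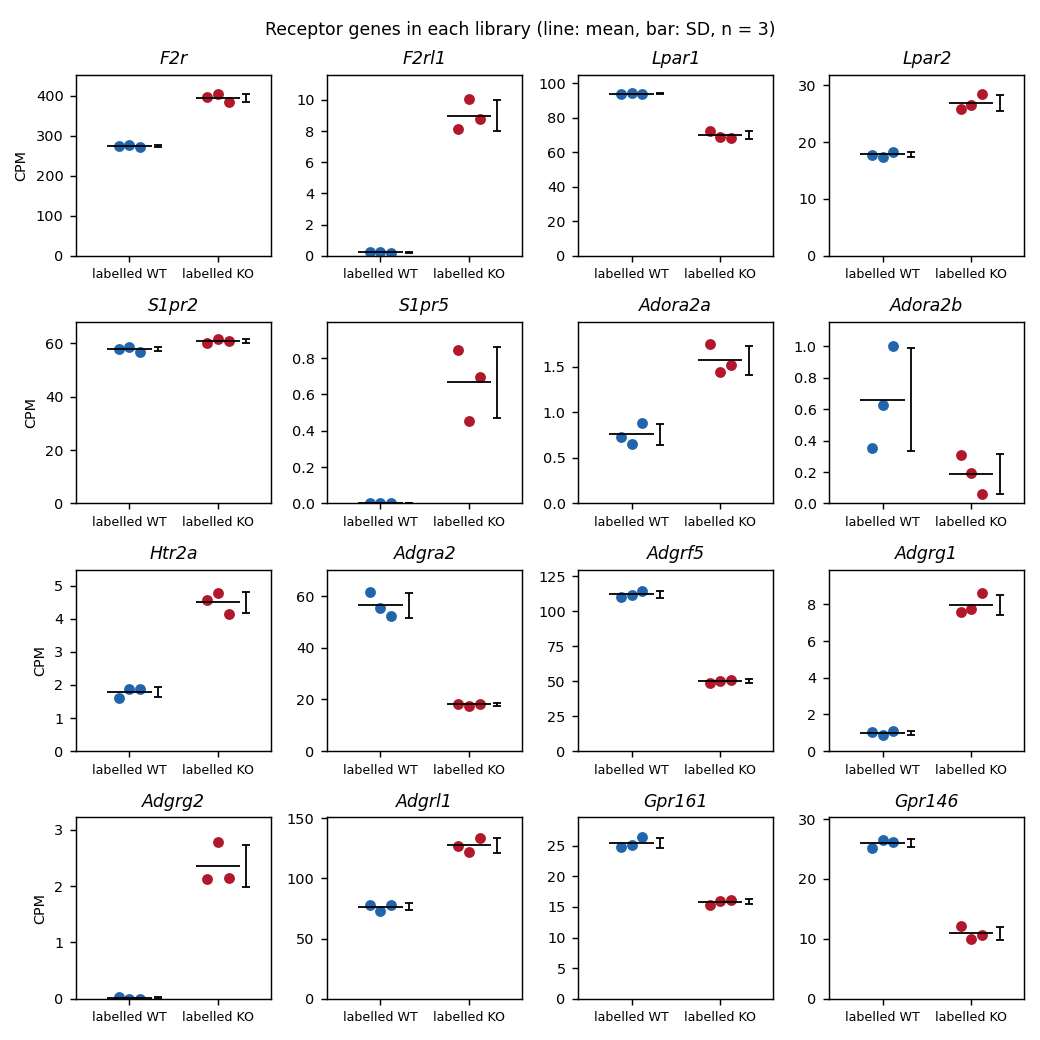
CPM in each of the 6 libraries (points) for 16 receptor genes, with the group mean (line) and SD (bar, n = 3); blue is labelled WT, red is labelled KO, and each panel has its own axis from 0. F2rl1, S1pr5 and Adgrg2 are close to 0 in labelled WT, Adgra2 and Adgrf5 fall, and S1pr2 shows nearly level groups.

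The adhesion receptors gave 6 calls of 10 tested, 4 higher and 2 lower, beside 17.7% of all genes. Without Adgrg2, which passed the count filter in labelled KO alone, 5 of 9 were called, beside 15.3% of all genes that passed it in both groups. Adgra2, also called Gpr124 and known as a co-activator of Wnt7 signalling with Reck, had 1930, 1855 and 1669 counts in labelled WT and 643, 733 and 608 in labelled KO. It fell from 56.4 ± 4.74 to 18.1 ± 0.424 CPM (SD, n = 3), a log2 fold change of -1.64 ± 0.06 (SE; edgeR adjusted p = 1.71e-10). Adgrf5, known for its part in surfactant balance in lung, had 3448, 3734 and 3657 counts against 1729, 2101 and 1690 (log2 fold change -1.16 ± 0.03, SE; edgeR adjusted p = 2.39e-11). For both genes every labelled WT library lay above every labelled KO library, and the groups did not overlap for 64.2% of all genes tested.

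The adhesion receptors called higher were mostly rare in labelled WT. Adgrg1, or Gpr56, a receptor of collagen III, had 32, 29 and 35 counts in labelled WT and 268, 323 and 284 in labelled KO, and rose from 0.994 ± 0.118 to 7.97 ± 0.552 CPM (SD, n = 3; log2 fold change 3.0 ± 0.13, SE; edgeR adjusted p = 7.32e-10). Adgrg2, best known from the epididymis, had 1, 0 and 0 counts against 75, 116 and 71, at least 25.3-fold higher against the floor of 3 counts per library (edgeR adjusted p = 3.09e-08), and 137 of its exon bases are shared with a gene of the opposite strand. Adgrb2 had 36, 22 and 38 counts against 84, 94 and 73 (log2 fold change 1.20 ± 0.19, SE; edgeR adjusted p = 1.74e-04). The latrophilin Adgrl1 was the exception in level, with 2440, 2447 and 2488 counts against 4478, 5060 and 4415 (log2 fold change 0.74 ± 0.04, SE; edgeR adjusted p = 1.14e-08), and 1343 of its exon bases are shared with annotated genes of the opposite strand. Another latrophilin, Adgrl2, had a log2 fold change of -0.10. In the family's level per kilobase Adgrf5 went from 18.4% to 9.01%, Adgra2 from 14.4% to 5.06% and Adgrl1 from 13.1% to 24.0%, at a sum of 67.6 ± 0.857 CPM per kilobase in labelled WT and 61.8 ± 1.54 in labelled KO (SD, n = 3).

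**Figure D4:**
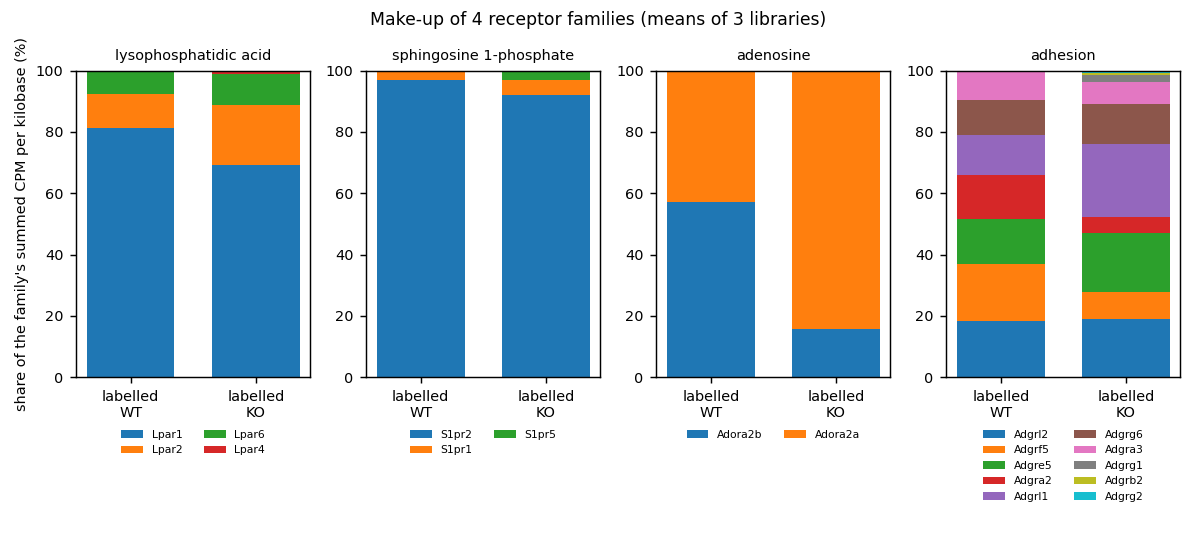
Share of each receptor in its family's summed level per kilobase of exon (y axis, percent, means of 3 libraries) in labelled WT and labelled KO for 4 families. Lpar1 goes from 81.1% to 69.1% of the lysophosphatidic acid receptors and Adora2a from 43.0% to 84.3% of the adenosine receptors, while S1pr2 keeps most of its own.

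The 5′ flanks of called genes that were rare in labelled WT are given so that their base composition can be read beside the counts. RefSeq windows were at hand for 44 of the 57 genes (63 windows, some genes having several starts), and the 250 bases upstream of the start were searched on both strands. The windows of Adgrg2 (GRCm38.p6, plus strand, chrX:160390440-160390689) and S1pr5 (minus strand, chr9:21248444-21248693) are rich in CpG, with 26 and 22 CpG beside a median of 6 over all 32851 windows, and the second of a pair of Adgrg1 windows (plus strand, chr8:94984149-94984398) has 4. Each is printed 5′ to 3′ on the strand of its gene. Capitals mark a match to the AP-1 motif TGANTCA, and are absent where none was found. The first Adgrg1 window (chr8:94976859-94977108), not printed, also has 4 CpG and has no match to it. Adra2a, called and rare in labelled WT as well, has a window with 22 CpG and a match to TATAAA that is not printed.
Adgrg2: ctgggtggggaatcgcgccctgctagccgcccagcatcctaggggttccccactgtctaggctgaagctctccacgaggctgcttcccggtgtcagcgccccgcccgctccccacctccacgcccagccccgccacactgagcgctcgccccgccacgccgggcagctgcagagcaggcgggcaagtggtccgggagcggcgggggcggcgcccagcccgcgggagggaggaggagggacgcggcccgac
S1pr5: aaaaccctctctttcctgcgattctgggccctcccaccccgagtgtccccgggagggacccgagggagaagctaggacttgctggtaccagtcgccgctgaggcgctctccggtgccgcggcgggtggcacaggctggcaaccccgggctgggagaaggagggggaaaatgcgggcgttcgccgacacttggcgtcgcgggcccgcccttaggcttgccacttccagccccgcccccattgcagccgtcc
Adgrg1: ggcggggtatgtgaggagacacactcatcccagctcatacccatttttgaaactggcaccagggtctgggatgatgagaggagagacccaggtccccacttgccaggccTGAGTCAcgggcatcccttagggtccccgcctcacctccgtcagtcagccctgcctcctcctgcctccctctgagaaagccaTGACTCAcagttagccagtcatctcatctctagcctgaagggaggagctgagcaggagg
The AP-1 motif was found in 7 of the 63 receptor windows and in 6.75% of all windows. The GLI motif GACCACCCA was in 0 of the 63, which says only that these letters are not in these windows, and in 0.225% of all windows. The cyclic AMP response element TGACGTCA was found in 1 (S1pr2; 1.55% of all windows), the E2F motif TTTCGCGC in 1 (Lpar2; 0.256%), the TEAD motif GGAATG in 6 (12.6%) and the TATA box TATAAA in 6 (12.4%). Windows of 1 gene can overlap, and a match is a run of letters, not a binding site.

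The 23 genes with a Gpr number gave 7 calls, of which 6 were lower, beside 17.7% of all genes called and 6.1% called lower. They include the 8 name matches listed as not receptors and Gpr137b-ps, and of these Gpr137c alone was called. Gpr161, a ciliary receptor that raises cyclic AMP and restrains Hedgehog signalling, had 776, 843 and 842 counts in labelled WT and 544, 669 and 533 in labelled KO (log2 fold change -0.68 ± 0.05, SE; edgeR adjusted p = 1.61e-07). Gpr135, an orphan receptor, fell from 113, 122 and 110 counts to 45, 40 and 41 (log2 fold change -1.63 ± 0.14, SE; edgeR adjusted p = 7.54e-07), and Gpr146, known from hepatic lipoprotein secretion, from 790, 888 and 837 to 429, 413 and 353 (-1.26 ± 0.07; edgeR adjusted p = 8.21e-09). In each of the 7 called genes the groups did not overlap, as in 64.2% of all genes tested. The orphan Gpr173 fell from 201, 258 and 224 counts to 162, 187 and 121 (log2 fold change -0.73 ± 0.11, SE; edgeR adjusted p = 8.14e-05). Gpr162 was the only one of the numbered genes called higher, and it passed the count filter in labelled KO alone, with 9, 5 and 8 counts against 33, 46 and 49 (log2 fold change 2.34 ± 0.31, SE; edgeR adjusted p = 3.01e-05). The calls of Gpr153 (log2 fold change -0.61) and Gpr137c (-0.75) each ended under at least 3 of the alternatives. Gpr39, a zinc-sensing receptor, had 6313, 6763 and 6448 counts against 6479, 7854 and 6176, a log2 fold change of -0.12, and Gpr176, which is known to tune the circadian clock through Gz, one of 0.42. Log2 fold changes over the receptor genes not called ran from -0.50 to 0.53.

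A further 10 rows carried no symbol in the deposited table but had a receptor name in the GENCODE annotation that matches the same rule. They are no part of the 57, and 6 of 8 tested were called, beside 17.7% of all genes. Chrm2 and Gpr141 passed the count filter in labelled KO alone and Chrm3 in labelled WT alone. For each of these a higher value in that group was a condition of its being tested. Of the 5 that passed the count filter in both groups 3 were called, beside 15.3% of all such genes. All but Htr1b were at or under 10 CPM in both groups, where 32.4% of all genes tested were called. Chrm2, the Gi-coupled muscarinic receptor of the heart, had 0, 1 and 0 counts in labelled WT and 167, 233 and 198 in labelled KO, at least 58.4-fold higher against the floor of 3 counts per library (edgeR adjusted p = 7.46e-10). Htr1b, a Gi-coupled serotonin receptor, had 528, 689 and 587 counts against 1106, 1314 and 1046 (log2 fold change 0.76 ± 0.06, SE; edgeR adjusted p = 3.86e-07), and Bdkrb1, the inducible bradykinin receptor, 17, 13 and 12 against 77, 71 and 75 (2.22 ± 0.22; edgeR adjusted p = 2.55e-06). Gpr141 was called higher, Chrm3 and Gpr20 were called lower, and Adrb1 (log2 fold change 0.05) and F2rl3 (0.04) were not called. These genes were chosen after their values were seen.

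Genes that make, release or remove the ligands had 12 calls of 30 tested (7 higher and 5 lower, beside 17.7% of all genes). Nt5e, Enpep and Ddc passed the count filter in labelled KO alone and Ace in labelled WT alone. Without these genes 8 of 26 were called, 4 in each direction. Of all genes that passed the filter in both groups 15.3% were called (9.77% higher and 5.56% lower). Nt5e, the ectonucleotidase CD73 that makes adenosine from AMP, had 3, 2 and 6 counts in labelled WT and 220, 269 and 200 in labelled KO (log2 fold change 5.74 ± 0.22, SE; edgeR adjusted p = 2.35e-10). Enpep, which trims angiotensin II, had 0, 0 and 1 against 30, 48 and 46, at least 12.1-fold higher against the floor. Ddc, the decarboxylase that makes serotonin and dopamine, had 2, 3 and 4 against 91, 74 and 87 (log2 fold change 4.58 ± 0.33, SE; edgeR adjusted p = 1.26e-07). Among those called lower, named after their values were seen, were Ace (log2 fold change -3.57), Agt (-2.28) and Kng2 (-2.43), the converting enzyme, the angiotensin precursor and a kininogen. No angiotensin or endothelin receptor had a row by symbol.

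The chemokine ligands listed gave 4 calls of 13, 1 higher and 3 lower, beside 17.7% of all genes. Of the 11 that passed the count filter in both groups 2 were called, beside 15.3% of all such genes. Cx3cl1 rose from 339, 448 and 440 counts to 826, 1011 and 741 (log2 fold change 0.88 ± 0.08, SE; edgeR adjusted p = 7.34e-07). Ccl5 had 32, 41 and 31 counts against 0, 2 and 2, at least 13.0-fold lower in labelled KO against the floor (edgeR adjusted p = 1.11e-06). That direction rests on labels that the counts of Gli2 and Gli3 go against, while Gli1 and Ptch1 were lower in labelled KO. Ccl5 passed the count filter in labelled WT alone, so a higher value there was a condition of its being tested. Receptor kinases, arrestins and accessory proteins gave 4 calls of 14, all lower, beside 17.7% of all genes called and 6.1% called lower. Of the 13 that passed the count filter in both groups 3 were called, beside 15.3% of all such genes. Arrb1, beta-arrestin 1, fell from 2463, 2609 and 2646 counts to 1307, 1644 and 1282 (log2 fold change -1.05 ± 0.04, SE; edgeR adjusted p = 2.72e-10), with Gprasp1 at -0.85 and Ramp1, the partner of the calcitonin-like receptor, at -0.78.

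Adenylyl cyclases, phospholipases C and protein kinase A subunits had 4 calls of 20, 3 higher and 1 lower, a share close to the 17.7% of all genes. Adcy3 and Adcy5 passed the count filter in labelled KO alone. Of the 17 genes that passed it in both groups Plce1 alone was called, beside 15.3% of all such genes. Adcy3 had 3, 3 and 5 counts in labelled WT and 182, 246 and 193 in labelled KO (log2 fold change 5.59 ± 0.21, SE; edgeR adjusted p = 2.88e-10), and 1380 of its exon bases are shared with Cenpo on the opposite strand. Adcy5 had 4, 6 and 5 against 33, 33 and 37 (2.57 ± 0.31, SE), and Plce1, a phospholipase C, 932, 1064 and 1088 against 2100, 2785 and 2340 (1.04 ± 0.07, SE; edgeR adjusted p = 3.01e-08).

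Receptors of this class outside the name rule gave 9 calls of 18 tested, 8 higher and 1 lower, beside 17.7% of all genes. Avpr1a and Pth1r passed the count filter in labelled KO alone, and without them 7 of 16 were called, 6 of them higher. Of all genes that passed it in both groups 15.3% were called, and 9.77% called higher. The vasopressin receptor Avpr1a had 1, 9 and 3 counts in labelled WT and 110, 122 and 97 in labelled KO (log2 fold change 4.44 ± 0.30, SE; edgeR adjusted p = 7.67e-08). Lgr6, a receptor of R-spondins, had 18, 4 and 5 against 60, 78 and 53 (2.62 ± 0.35, SE; edgeR adjusted p = 3.02e-05), and the melanin-concentrating hormone receptor Mchr1 70, 70 and 85 against 262, 327 and 242 (1.69 ± 0.11, SE; edgeR adjusted p = 3.45e-08). In each of the 3 every labelled KO library lay above every labelled WT library, and the groups did not overlap for 64.2% of all genes tested.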

How the data were processed

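The authors deposited raw counts of reads per gene and log2 CPM values made from them with limma's voom. Per the labels' processing notes, STAR 2.7.2b, featureCounts, limma and GRCm38.p6 were named, without roles or strand settings. Genes with low counts had been removed, leaving 14831 rows in both tables. Groups came from the genotype labels alone.

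Counts were tested with edgeR 4.0.16 (R 4.3.3), with TMM scaling, filterByExpr and the quasi-likelihood F test over 14289 genes. The procedure was tested on simulated counts that held no genes near 0 in labelled WT and no changes near 1.5-fold. That test therefore does not cover such calls. Standard errors came from the fold change and its F statistic. CPM used TMM effective library sizes, and lengths were exon unions from GENCODE M21 (GRCm38), which also named rows without a symbol. Replicates of a group differed by more than sampling noise (chi-square per degree of freedom 2.47 to 7.53), so all 6 libraries were kept. A two-sided exact permutation test of a single gene can reach no p below 0.1 with groups of 3, and p-values measure the spread between wells. A floor of 3 counts covers counting error only.

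One receptor gene and 1 pathway list are not reported here. The receptor genes and all lists were chosen with earlier results of these data known. Named by rule were, per family, up to 4 called genes with the largest change and 30 counts or more in each library of the group where they are higher, the 10 highest levels per kilobase, genes near 0 in a group and over 30 counts in the other, Gpr161, Gli2 and Gli3, relatives of these, and up to 3 called genes per pathway list. Alternatives were scaling by RLE, by the upper quartile or by the total count, other filters on counts, other limits of fold, DESeq2 1.42.0, limma-voom (limma 3.58.1), limma on the deposited log2 values, and leaving out each library. Promoter windows came from RefSeq.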

Additional observations from a re-analysis of the deposited data

How the results depend on the processing

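None of the 23 called receptor genes changed direction under any alternative run that tested it, and of those not called Gpr137, Gpr157, Gpr35 and Gpr63 took either sign. The calls that ended were those of Gpr137c (with DESeq2, without the second labelled KO or the third labelled WT library), Gpr153 (with total-count or upper-quartile scaling, without the third labelled KO or the first labelled WT library), Lpar2 (without the third labelled KO or the second labelled WT library) and Adora2b (limma on the deposited log2 values); those with a fold limit of 2 are in the counts below. Counts moved mostly with the fold limit. Without one, 41 of 55 receptor genes tested were called (22 higher and 19 lower), beside 8391 of all 14289 (58.7%). With a limit of 2-fold 15 were called (5 lower), beside 1456 of all 14289. For the 23 numbered Gpr genes these counts were 15 and 3, for the 14 kinases and arrestins 12 and 2. Without a limit the ligand makers and removers gave 25 calls of 30 tested and the cyclases and phospholipases 13 of 20. With at least 10 counts required in every library, 9 receptor genes were called higher. Calls under that filter also fell to 6 ligand makers and removers, 1 chemokine ligand and 1 cyclase or phospholipase. Such a filter removes genes near 0 in a group, and no share of all genes called is given for it. Alternatives chosen after seeing the data left 17 calls without the genes that share exon bases with the opposite strand, where no share of all genes is given. Without those that passed the filter through 1 group alone 18 were called (9 higher), beside 15.3% of all genes that passed in both groups. The last choice left 2 calls of 11 chemokine ligands and 1 of 17 cyclases and phospholipases. No paired analysis was possible because the labels carry no replicate numbers shared between the groups. A gene listed at 0 in every library of a group can still be expressed below the floor of 3 counts.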

Other observations

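The genes next to the receptors with a log2 fold change of at least 2 in size were read within 250000 bases on either side (GENCODE M21, GRCm38). Counts are of genes tested, and 17.7% of all genes tested were called. Around F2rl1 0 of 5 were called, around S1pr5 0 of 16 and around Adgrg2 0 of 1, where that gene, Phka2, 4096 bases away, had a log2 fold change of -0.45 in edgeR's test. Around Adgrg1 3 of 9 were called, all higher in labelled KO, namely Cx3cl1 (log2 fold change 0.88), Kifc3 (0.59) and Cngb1 (0.72). Around Adra2a 1 of 5 was called, Rbm20, a splicing regulator of heart muscle, with 20, 26 and 17 counts in labelled WT and 112, 134 and 114 in labelled KO (log2 fold change 2.32 ± 0.17, SE). Around Gpr162 5 of 24 were called, a share near that of all genes, 3 higher, among them the cell cycle gene Cdca3 (1.55), and 2 lower, Eno2 (-0.82) and C1s2 (-0.80).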
